A study of Mus musculus with 4 samples.

Results

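Aerocyte-like endothelial cells were described in single-cell transcriptomes of lung tumors from 4 female mice. A cell was taken as a member when it had at least 200 detected genes, at most 13.4% of its UMIs (unique molecular identifiers, each standing for 1 captured transcript) in mitochondrial genes, at least 4 UMIs in sum of the endothelial genes Cdh5, Cldn5, Ramp2 and Egfl7, at least 2 UMIs in sum of Car4 and Ednrb, and none of Vwf or Ptprc. By this rule 202 cells were aerocyte-like, of 1698 endothelial cells without Ptprc and of 19892 cells that passed the gene and mitochondrial cut-offs, in a matrix of 20351 cells. The members made up 11.9% of the endothelial cells (95% interval 10.4 to 13.5) and 1.02% of the cells that passed. They were compared with 1036 endothelial cells that had at most 1 Car4 or Ednrb UMI and no Vwf (Car4/Ednrb-low), with 460 endothelial cells that had Vwf, and with the 18194 other cells.

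The mice carried Lkb1XTR/XTR, an Lkb1 allele that Cre recombinase inactivates and that the recombinase FLPo can repair, together with a Cre-activated tdTomato reporter at Rosa26. Lenti-Cre was given through the trachea, tumors grew for 16 weeks, and all mice received tamoxifen in 4 mg doses for the 2 weeks before harvest. The 2 Restored mice also carried FLPo-ERT2, which tamoxifen activates, and the 2 Non-Restored mice did not. Microdissected tumors were dissociated and viable DAPI-negative cells were sorted. The matrix pools the 4 mice and no map from cells to mice was used here, so Restored and Non-Restored tumors were not compared, there is 1 sample, and no test over animals was possible. Every interval below is a 95% interval for counting error alone and holds nothing about differences between mice.

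Alveolar capillaries of the mouse lung hold endothelial cells of 2 kinds. Aerocytes are large, thin, net-like cells spread over the alveolar surface opposite type I epithelium, where gas exchange takes place, and are known for Car4 and Ednrb. General capillary cells line the rest of the bed, act as progenitors for both kinds, and carry Aplnr, Kit and Gpihbp1. The kinds are linked by ligands and receptors, since aerocytes make apelin and Kit ligand and general capillary cells bear the receptors.

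Only 8 genes chose the cells, so their values are a description and none of them counts below. Car4, a membrane-anchored carbonic anhydrase, had 726 UMIs in 184 members, or 1260.4 CPM (UMIs per 1000000 UMIs summed over the class, 1170.4 to 1355.5), against 74.4 CPM in Car4/Ednrb-low cells. Ednrb, the endothelin B receptor, had 233 UMIs in 90 members, or 405 CPM (354 to 460), against 21.5 CPM. Of the members, 72 had both genes, 112 had Car4 without Ednrb and 18 had Ednrb without Car4. The Car4+Ednrb sum was 2 in 79 members, 3 in 48, 4 or 5 in 23 and 6 or more in 52, with 40 UMIs in the highest cell. Just outside the threshold were 196 cells with 1 UMI, and 840 had none. The 4 endothelial genes selected on were between 1276 CPM for Cdh5 and 2302 CPM for Cldn5 in the members. Before Vwf and Ptprc were considered, 290 endothelial cells had 2 or more Car4 or Ednrb UMIs. The rule removed 46 of these for Ptprc and 42 for Vwf, and the 42 had a median of 6805.5 UMIs per cell.

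**Figure D1:**
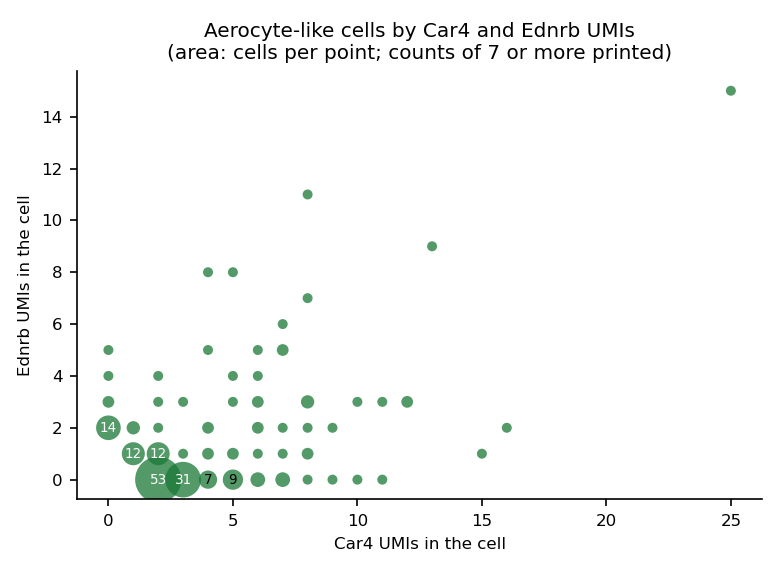
Car4 UMIs (horizontal axis) and Ednrb UMIs (vertical axis) in each of the 202 aerocyte-like cells, with the area of a point growing with the number of cells at that pair of values. The fullest points lie at the threshold, with 53 cells at 2 Car4 and 0 Ednrb UMIs, and a sparse tail reaches 25 Car4 and 15 Ednrb UMIs in 1 cell.

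Depth differed moderately between the classes. The median member had 2144.5 UMIs and 1140 detected genes (756 to 23472 UMIs), against 1806.5 UMIs and 975 genes in Car4/Ednrb-low cells, 2213.5 UMIs in Vwf-positive cells and 2014.5 UMIs in the other cells. A deeper cell reaches 2 UMIs more easily, so shares of cells with a UMI are given after each cell was thinned to 1000 UMIs, which kept 197 of 202 members and 929 of 1036 Car4/Ednrb-low cells. The members held 576009 UMIs in all.

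Among the gene lists, genes known from aerocytes that the rule did not use lay furthest above Car4/Ednrb-low cells. Of 16 such genes, 14 were at 50 CPM or more in either class, 9 of these were called higher and none was called lower. Fibin, Chst1, Tbx2 and Apln reached 50 CPM only in the members, so they could not have been called lower. The others called, Emp2, Cyp4b1, Kitl, Pmp22 and Prx, were above 50 CPM in both classes. The list was chosen with earlier results of these data known, so its counts are a description. A gene was called when the ratio of CPM + 10 was at least 2-fold and the interval of the raw ratio lay off 1. Over all genes, 70 of 3445 were called higher, or 2.03%. The median log2 ratio of CPM + 10 over the 14 genes was 1.64, against 0.07 over all genes tested.

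Fibin, which encodes a secreted protein, was close to absent from the other endothelial classes. It had 95 UMIs in 35 members (165 CPM, 133 to 202), 1 UMI in all Car4/Ednrb-low cells (0.49 CPM) and 1.39 CPM in Vwf-positive cells, and its log2 ratio to the low class was 8.40 with an interval of 5.88 to 13.72. Emp2, which encodes a membrane protein of the tetraspan type, had 781 CPM (711 to 857) in the members and 86.1 CPM (73.8 to 99.8) in Car4/Ednrb-low cells, a 9.07-fold difference. Emp2 was in 34.0% of thinned members and 6.35% of thinned low cells. The CPM intervals of the classes were far apart for both genes. On GRCm38 Fibin lies on the minus strand at chr2:110360917-110363183 and Emp2 on the minus strand at chr16:10281749-10313968.

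Chst1, a sulfotransferase of glycan chains, had 120 CPM in the members (93.2 to 152) against 8.81 CPM (5.22 to 13.9). Tbx2, a transcription factor of the T-box family, had 149 CPM (119 to 184) against 15.2 CPM (10.3 to 21.5), and was found in 19.8% of thinned members, 1.18% of thinned low cells and 0.19% of the other cells. Cyp4b1, a cytochrome P450, had 293 CPM (251 to 341) against 53.8 CPM (44.2 to 64.9). Each of the 3 was over 5-fold apart, with log2 ratios of 3.77, 3.30 and 2.45.

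Both ligands of the capillary pair were among the genes called higher. Apln, which encodes apelin, had 113 CPM (87.1 to 144) in the members against 18.1 CPM, and Kitl, which encodes Kit ligand, had 778 CPM (707 to 853) against 251 CPM (230 to 274). Their receptors lay the other way without reaching a call. Aplnr had 57.3 CPM against 92.9 CPM (log2 ratio -0.70, -1.28 to -0.16), and Kit had 182 CPM against 289 CPM (log2 ratio -0.66, -0.98 to -0.36). Pmp22, another tetraspan gene, and Prx, a scaffold protein best known from myelin, completed the 9 with 3.39-fold and 3.17-fold differences.

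The 5 listed aerocyte genes that were not called were common in both classes. Kdr, the main VEGF receptor, had 809 CPM against 402 CPM and a log2 ratio of 1.01 (0.84 to 1.17), which the added 10 CPM brought just under the call. Nrp1, a VEGF co-receptor, had 826 CPM against 473 CPM, Igfbp7, an insulin-like growth factor binding protein, 3533 CPM against 2041 CPM, Icam2, an adhesion molecule, 960 CPM against 652 CPM, and Scn7a, a sodium channel, 1311 CPM against 1086 CPM. Rprml and Sirpa were under 50 CPM in both classes. Rprml had 20 UMIs in 13 members and 1 UMI in the low class.

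**Figure D2:**
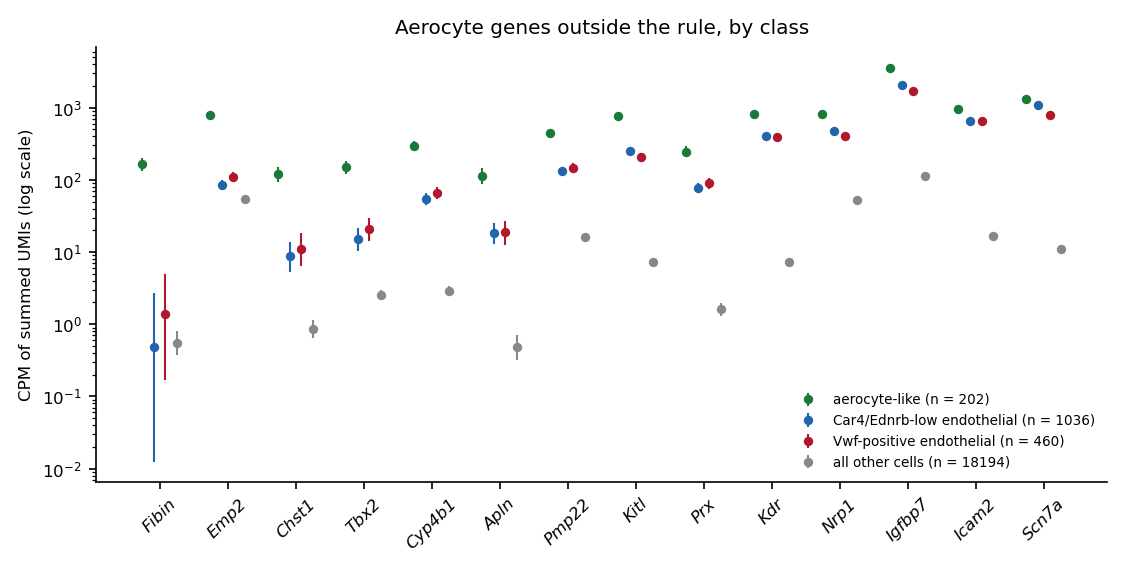
CPM of summed UMIs on a log scale for the 14 listed aerocyte genes at 50 CPM or more, in aerocyte-like, Car4/Ednrb-low, Vwf-positive and all other cells, with bars for 95% Poisson intervals. Fibin, Emp2, Chst1, Tbx2, Cyp4b1 and Apln stand apart in the members. Kdr, Nrp1, Igfbp7, Icam2 and Scn7a were not called against Car4/Ednrb-low cells. Against Vwf-positive cells 12 of the 14 were called higher.

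The bases before the start of Emp2 and Apln, as a pair of the genes called higher, and of Car4, as the rule gene most members carried, are shown because these transcripts were found in 100, 38 and 184 members. These are the RefSeq windows of 250 bases before the start on GRCm38.p6, 5′ to 3′ on the gene's strand, that do not overlap the annotated gene. Emp2 lies on the minus strand at chr16:10313969-10314218, Apln on the minus strand at chrX:48034854-48035103 and Car4 on the plus strand at chr11:84957504-84957753. Capitals mark matches to 4 motifs searched on both strands, a T-box site (GGTGTGA), an ETS site (CAGGAAG), a SOX site (ACAAAG) and a GATA site (AGATAAG).
Emp2: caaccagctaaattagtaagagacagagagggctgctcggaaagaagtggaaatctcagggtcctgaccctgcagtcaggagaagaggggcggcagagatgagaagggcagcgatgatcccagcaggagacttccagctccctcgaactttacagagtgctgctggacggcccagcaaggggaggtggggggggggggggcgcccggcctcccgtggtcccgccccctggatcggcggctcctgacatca
Apln: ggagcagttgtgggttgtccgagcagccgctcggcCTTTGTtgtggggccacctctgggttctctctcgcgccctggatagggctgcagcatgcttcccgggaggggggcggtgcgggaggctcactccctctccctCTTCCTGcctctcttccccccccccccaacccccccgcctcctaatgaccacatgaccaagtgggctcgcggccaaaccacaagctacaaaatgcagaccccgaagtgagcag
Car4: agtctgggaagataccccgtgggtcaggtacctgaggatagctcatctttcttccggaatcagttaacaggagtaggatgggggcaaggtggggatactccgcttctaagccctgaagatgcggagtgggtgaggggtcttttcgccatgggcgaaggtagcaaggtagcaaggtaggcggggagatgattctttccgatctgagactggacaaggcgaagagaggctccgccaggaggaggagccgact
Apln held an ETS match on the opposite strand, which begins 113 bases before the start, and a SOX match at 215 bases, and the windows of Emp2 and Car4 held none of the motifs. Promoter windows were found for 47 of the 70 genes called higher, 68 windows in all. The ETS letters were in 13.2% of these, in 10.5% of the windows of all genes tested and in 10.8% of all 32851 windows. The SOX letters were in 14.7%, 11.4% and 16.5%, the T-box letters in 1.47%, 2.34% and 3.33% and the GATA letters in 1.47%, 1.24% and 2.74% of the same sets. A match is a description of the letters and not of a bound factor.

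Within the members the aerocyte genes were uneven and followed the Car4+Ednrb sum. At least 1 UMI of Fibin, Tbx2, Chst1 or Apln was found in 4.64% of endothelial cells at a sum of 0 (3.32 to 6.29), 11.2% at 1, 16.5% at 2 (9.06 to 26.5), 33.3% at 3 (20.4 to 48.4), 47.8% at 4 or 5 (26.8 to 69.4) and 92.3% at 6 or more (81.5 to 97.9). After thinning to 1000 UMIs the same shares were 2.94%, 4.42%, 10.3%, 15.6%, 34.8% and 78.4%. Cells stayed at the Car4+Ednrb sum they had before thinning, so deeper cells could still reach higher sums. Median depth was 1792 UMIs at 0, 2008 at 2 and 2196.5 at 6 or more. The cells just inside the threshold, at 2, overlapped in this measure with those just outside it, at 1 (7.17 to 16.5), and 88 of the 202 members (43.6%, 36.6 to 50.7) had any of the 4 genes. Before thinning the intervals of neighbouring steps overlapped from 1 up to 4 or 5, those at 0 and 1 did not, and the step at 6 or more lay above all others.

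The same held gene by gene. Emp2 went from 73.1 CPM at a sum of 0 to 252 CPM at 2, 286 CPM at 3, 644 CPM at 4 or 5 and 1634 CPM at 6 or more. Fibin had 439 CPM in the 52 cells at 6 or more and 16.1 CPM in the 150 members with 2 to 5. Cyp4b1 had 691 CPM and 77.6 CPM in those sets, and in the set with 2 to 5 its log2 ratio to the low class, 0.53 (-0.11 to 1.13), had an interval that included 0. Tbx2 differed less within the members, with 222 CPM and 110 CPM (log2 ratios to the low class 3.87 and 2.86).

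**Figure D3:**
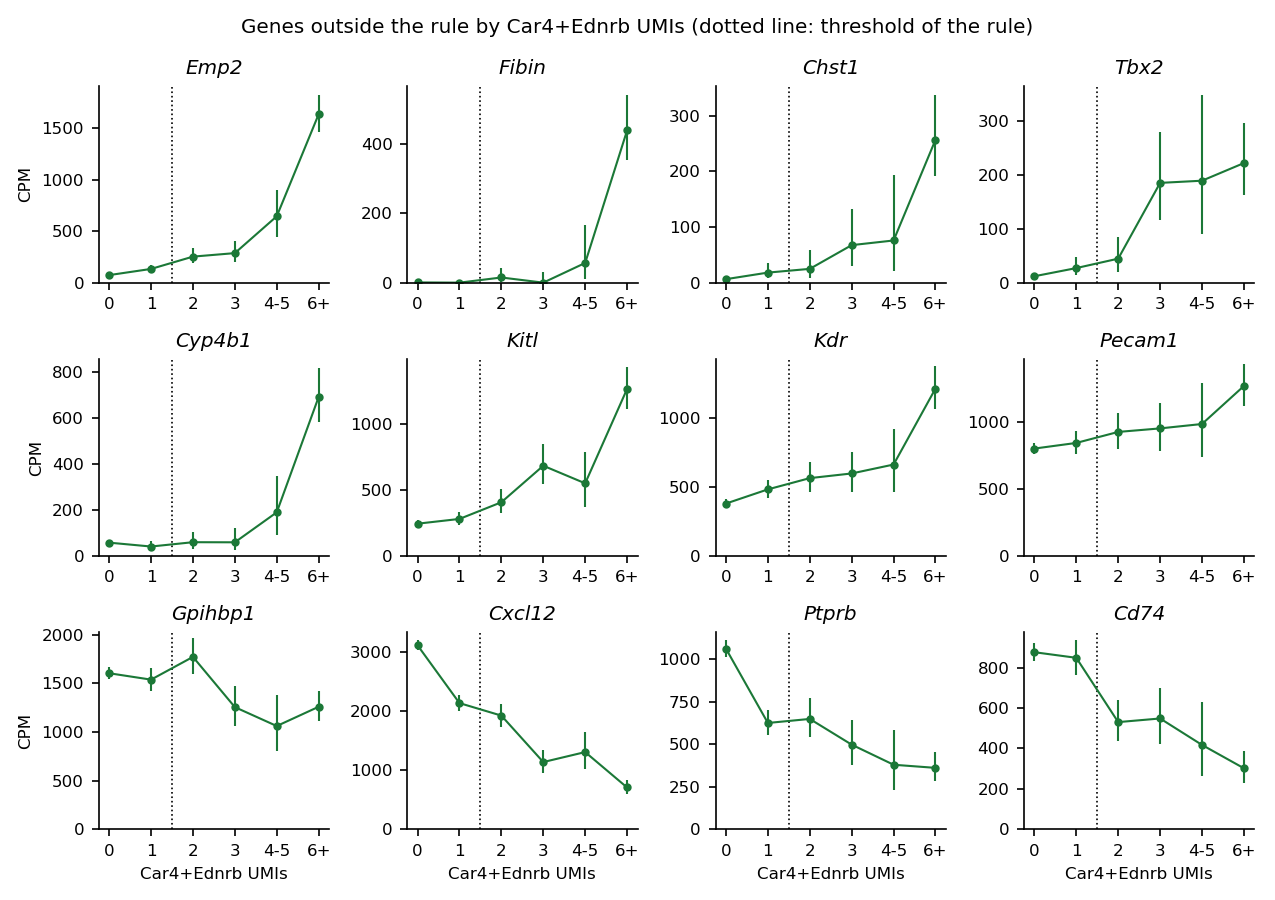
CPM (vertical axes, each from 0) of 12 genes outside the rule in endothelial cells without Vwf or Ptprc, by the Car4+Ednrb sum of the cell, with 95% Poisson intervals and a dotted line at the threshold. Emp2 reaches 1634 CPM and Fibin 439 CPM at 6 or more UMIs, Pecam1 goes from 801 to 1269 CPM, Gpihbp1 from 1604 to 1259 CPM, and Cxcl12 from 3119 to 706 CPM.

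Levels also differed by which rule gene a member carried. This split overlaps with the Car4+Ednrb sum, since cells with Ednrb alone had at most 5 UMIs in sum. The split and the sum were not told apart. The 72 cells with both Car4 and Ednrb had 382 CPM of Fibin, 229 CPM of Chst1, 628 CPM of Cyp4b1 and 1510.3 CPM of Emp2. The 112 cells with Car4 alone had 16.9, 50.8, 71.1 and 288 CPM of these genes. The 18 cells with Ednrb alone had no UMI of Fibin, Chst1 or Cyp4b1 in 44853 UMIs, which allows up to 66.9 CPM of each, and 201 CPM of Emp2 (91.8 to 381). They had 1115 CPM of Plvap, a gene of fenestral and caveolar diaphragms, against 276 CPM in cells with both, and 7536 CPM of Igfbp7, against 4675 CPM. The 44 Car4/Ednrb-low cells whose single UMI was Ednrb had 1225 CPM of Plvap and 6177 CPM of Igfbp7 as well, and the 152 whose single UMI was Car4 had 308 and 1766 CPM. Cxcl12 had 2720.0 CPM (2258.8 to 3247.7) in the 18 cells and 2906 CPM in all Car4/Ednrb-low cells. The summed level of the 16 listed aerocyte genes was 10501 CPM (9574 to 11494) in the 18 cells, of which Igfbp7 gave 7536 CPM, against 6966 CPM in cells with Car4 alone. The genes of the list thus went different ways in these 18 cells. Without them 9 aerocyte genes were still called higher and 1 general capillary gene, Plvap, was called lower.

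None of the general capillary genes was called in the members as a whole. Of 16 listed, 13 were tested, and their median log2 ratio was -0.16. Over all genes 17 of 3445 were called lower, or 0.493%. Gpihbp1, which carries lipoprotein lipase to the capillary lumen, had 1420.1 CPM against 1590 CPM, and Cd36, a fatty acid transporter, 2306 CPM against 1669 CPM. The lowest ratios of the list belonged to genes of the angiopoietin receptor and of BMP signals. Ptprb, a phosphatase that acts on the receptor Tek, was at -0.98 (-1.16 to -0.80), Tek itself had 115 CPM against 228 CPM, and the ligand gene Bmp6 was at -1.17 (-1.99 to -0.44). At 6 or more Car4 and Ednrb UMIs, against the low class, 6 of the list were called lower, Aplnr, Bmp6, Kit, Plvap, Ptprb and Tek, whereas Gpihbp1 was at -0.34 (-0.53 to -0.15).

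Both classes were chosen by the same endothelial genes, so a shared pan-endothelial identity was set by the rule. Over all genes tested, 2.03% were called higher and 0.493% lower. None of 15 tested pan-endothelial genes was called, with Pecam1 at 1057 CPM against 811 CPM and Calcrl, a receptor of adrenomedullin, at 1604 CPM against 1808 CPM. Of 6 tested arterial genes 2 were called lower, the chemokine gene Cxcl12 and the matrix gene Mgp. Mgp was no longer called when its top cells were left out. None of 4 tested venous genes was called. One of 3 lymphatic genes was called lower. This was Ccl21a, a chemokine gene with near-identical copies whose reads may be shared, at 0 UMIs in the members, which allows up to 5.21 CPM, and 557 UMIs in 14 of the low cells.

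Cxcl12, which encodes the ligand of Cxcr4, was the most abundant gene called lower. It had 1278 CPM (1187 to 1374) in the members against 2906 CPM (2833 to 2981) in Car4/Ednrb-low cells, and was in 43.1% of thinned members and 72.6% of thinned low cells. It went from 3119 CPM at a Car4+Ednrb sum of 0 to 2138 CPM at 1, 1926 CPM at 2 and 706 CPM at 6 or more. Vegfa, which encodes vascular endothelial growth factor A, had 72.9 CPM (52.6 to 98.6) against 172 CPM (155 to 191). In the list of VEGF, angiopoietin and apelin genes Vegfa was the 1 gene of 11 called lower and Apln the 1 called higher. The shares over all genes tested were 0.493% lower and 2.03% higher, and a list this short can hold 1 call or none. The VEGF receptor genes Flt1 and Flt4 had 691 CPM against 648 CPM and 52.1 CPM against 60.2 CPM. Mgp was uneven, since 142 of its 238 UMIs in the low class came from 1 cell. With the top cell of each class left out its log2 ratio was -0.87. It had 109 CPM in members at 6 or more and 8.03 CPM in those with 2 to 5, against 116 CPM in the low class.

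Calls among antigen presentation genes were in class II. All 5 tested class II genes had ratios below 1, and their median log2 ratio was -0.98. H2-Aa and H2-Eb1 were called lower, against 0.493% of all genes tested. H2-Aa had 115 CPM against 257 CPM, H2-Eb1 93.7 CPM against 218 CPM, and Cd74, the invariant chain, 443 CPM against 870 CPM with a log2 ratio of -0.97 (-1.17 to -0.78). The class II sum was 1751 CPM at a Car4+Ednrb sum of 0 and 543 CPM at 6 or more. It was 18073 CPM in the other cells. The leukocyte list summed to 375 CPM in the members and 571 CPM in the low class, a difference whose part in the class II result was not tested. Without cells that carried markers of another class, H2-Eb1 had a log2 ratio of -0.82 and was no longer called. The same held without cells that Scrublet called as doublets (-0.94). None of 9 class I genes was called, and H2-K1 had 1125 CPM against 1057 CPM.

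Of 23 tested endothelial transcription factors 3 were called higher, Tbx2, Tbx3 and Meox1, and none lower. The shares over all genes were 2.03% higher and 0.493% lower, and Tbx2 is also on the aerocyte list. Tbx3, a second T-box factor, had 332 CPM (286 to 382) against 141 CPM, and Meox1, a homeobox factor, 116 CPM against 50.4 CPM. Tbx3 had 518 CPM at a Car4+Ednrb sum of 6 or more and 230 CPM at 2 to 5. Meox1 had 104 and 123 CPM in those sets and did not rise with the sum. It was no longer called at a sum of at least 3, at a sum of at least 6, or in cells of 2000 to 6000 UMIs. Epas1, Klf2, Tcf4 and Foxf1 had log2 ratios between -0.14 and 0.38. Among coagulation genes F2r, which encodes a thrombin receptor, was called higher with 116 CPM against 31.8 CPM.

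Signalling lists of the endothelium held few calls, as did the genes as a whole, with 2.03% called higher and 0.493% lower. Lists this short can hold no call at these shares. No gene was called among 7 tested of the endothelin, nitric oxide and natriuretic list, 7 Notch genes, 14 BMP and TGF-beta genes, 13 semaphorin and guidance genes, 10 junction genes, 9 lipid uptake genes, 8 basement membrane genes or 15 immediate-early and stress genes. Edn1, the ligand of the endothelin receptors, had 146 CPM in the members against 289 CPM (log2 ratio -0.98, -1.33 to -0.65), and Edn3 had no UMI in either class. Smad6, an inhibitor of BMP signals, had 104 CPM against 49.4 CPM. In the list of tumor endothelial and tip cell genes, 1 of 14 was called higher, Apln again, and Esm1, a tip cell gene, had 66.0 CPM against 62.1 CPM.

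**Figure D4:**
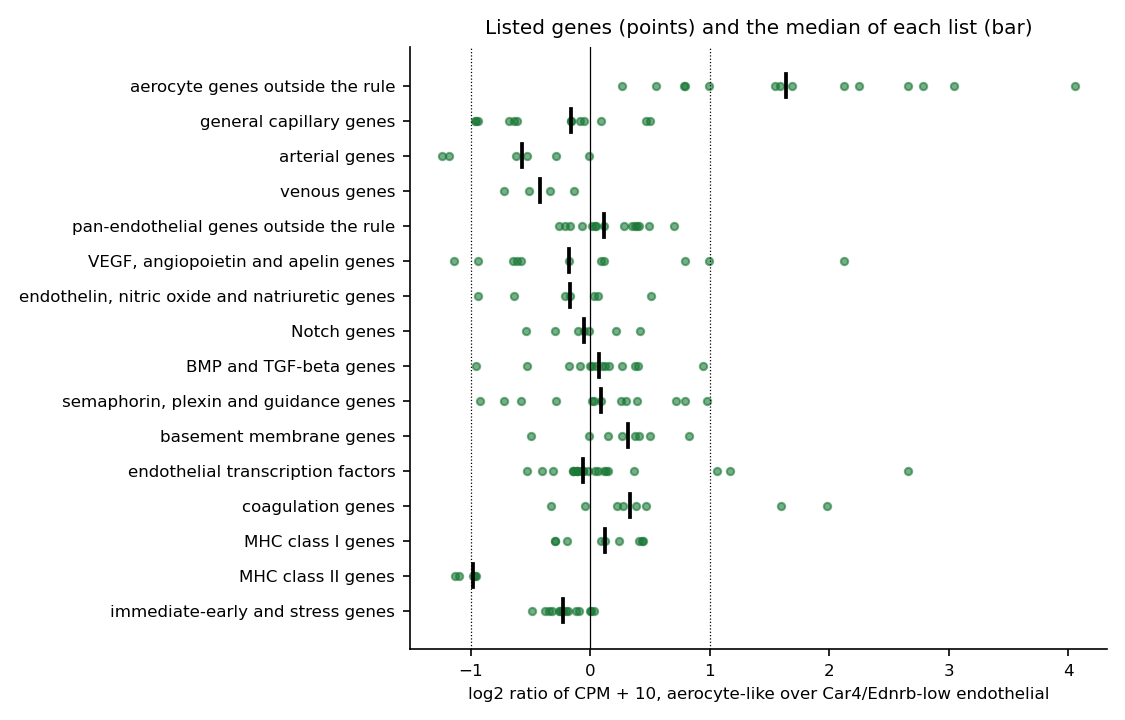
Log2 ratio of CPM + 10 between aerocyte-like and Car4/Ednrb-low endothelial cells for the tested genes of 16 lists (points), with the median of each list as a bar and dotted lines at 2-fold. The aerocyte list has the highest median, 1.64, and the class II list the lowest, -0.98, and most other points lie within 2-fold.

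Among the 12 genes with the largest ratios were several outside any aerocyte list. AW112010, a transcript known from interferon responses, had 460 CPM against 58.2 CPM, a 7.90-fold difference spread over 75 members. Pcolce2, an enhancer of procollagen processing, had 85.1 CPM against 3.42 CPM, Itgb5, an integrin subunit, 66.0 CPM against 4.89 CPM, and Slc22a23, a solute carrier, 55.6 CPM against 3.91 CPM. These 4 were each found in 23 or more members. Ibsp and Apod were also among the 12 but came from single cells, with 77 of 78 Ibsp UMIs in 1 member and all 30 Apod UMIs in 1 member. Timp3, an inhibitor of matrix proteases, was the gene called higher with the most UMIs, with 1521 CPM (1422 to 1625) against 606 CPM, and Clu, which encodes clusterin, had 479 CPM against 188 CPM.

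Among the 12 with the largest ratios in the other direction, beside Ccl21a, Gm21541, Mgp, Cxcl12, Vegfa and H2-Eb1, were genes of myeloid cells. Il1b, the cytokine, had 5.21 CPM against 50.4 CPM, S100a8 39.9 CPM against 121 CPM and Apoe, an apolipoprotein made by macrophages, 29.5 CPM against 108 CPM. In the low class 97 of 248 S100a8 UMIs and 103 of 220 Apoe UMIs came from 1 cell each. Without cells with markers of another class none of the 3 was called, and S100a8 then had a log2 ratio of 0.14. None of the 3 was called without the cells that Scrublet called as doublets either. Frmd4a, Cdc42ep4 and Iigp1, an interferon-induced GTPase, made up the 12 and lay between 19.1 and 45.1 CPM in the members and 58.2 and 110 CPM in the low class.

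**Figure D5:**
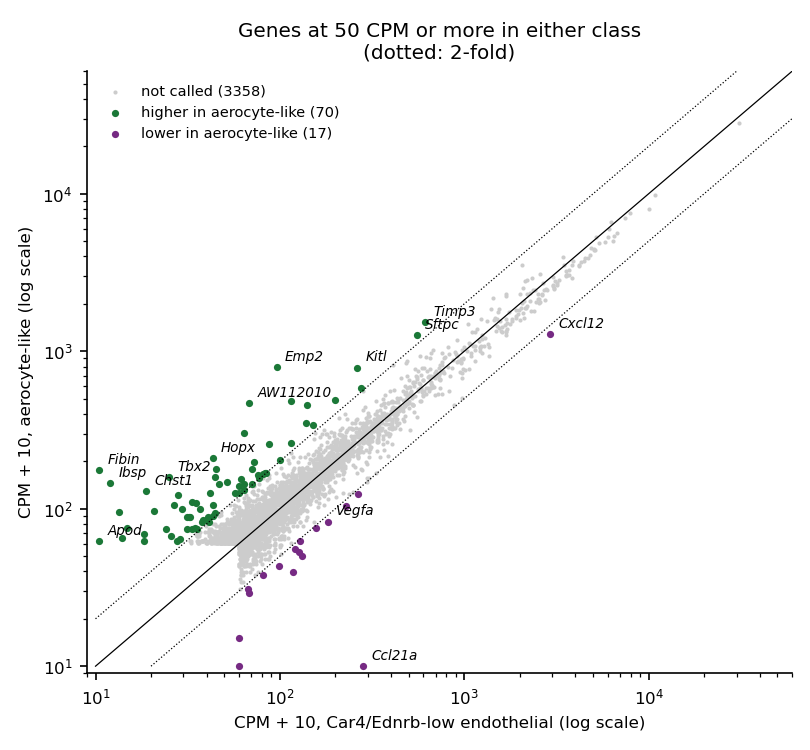
CPM + 10 on log scales in Car4/Ednrb-low (horizontal axis) and aerocyte-like cells (vertical axis) for 3445 genes outside the rule at 50 CPM or more in either class, with the 70 genes called higher and 17 called lower colored and dotted lines at 2-fold. Fibin, Emp2, Chst1 and Tbx2 lie far above the lines, Cxcl12 is the most abundant gene below them, and the labelled Ibsp, Apod and Sftpc points each come mostly from 1 cell.

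Genes of other cell types were present in the members, and their part in the results was not tested. Of the 16 epithelial genes 5 were tested and 4 were called higher, Sftpc, Sftpb, Scgb1a1 and Hopx, against 2.03% of all genes tested. One cell held 657 of 723 Sftpc UMIs, 1 held 53 of 97 Sftpb UMIs and 1 held 28 of 30 Scgb1a1 UMIs. Hopx, a homeobox gene of type I epithelium, was different, with 115 UMIs in 62 members and at most 10 in a cell, and it went from 31.2 CPM at a Car4+Ednrb sum of 0 to 410 CPM at 6 or more. Ager, the other type I gene of the list, had 9 UMIs in 3 members and Epcam 4 UMIs in 1. The epithelial list summed to 1898 CPM in the members (1787 to 2013) and 801 CPM in the low class. The excess lay in the members at a Car4+Ednrb sum of 3, with 6842 CPM. The list summed to 510 CPM at 2, 455 CPM at 4 or 5 and 760 CPM at 6 or more. The interval covers counting error and not the weight of single cells.

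Of 16 leukocyte genes 3 were tested, 2 were called lower and none higher, and Ptprc was at 0 by the rule. The 2 called lower were S100a8 and S100a9, with 97 of 248 and 90 of 242 low-class UMIs in the top cell of each. Without cells with markers of another class S100a8 had a log2 ratio of 0.14. Over all genes tested 2.03% were called higher and 0.493% lower. Of 12 stromal genes 1 was tested, Dcn, called higher with 70 of its 77 UMIs in 1 member. The stromal list summed to 290 CPM in the members (248 to 337) and 97.3 CPM in the low class. In all, 9 of the 70 genes called higher had at least 50% of their UMIs in 1 member, Ibsp, Apod, Sftpc, Sftpb, Scgb1a1, Cxcl15, Dcn, Bgn and Chil3, and none of the 9 aerocyte genes was among them. When members with 3 or more markers of another class were left out, 185 cells remained, 74 genes were called higher, 58 of them among the 70, and 10 aerocyte genes were called, Kdr being the added one.

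Against Vwf-positive endothelium, which includes larger vessels, the aerocyte list stood apart as well. This class kept the 42 Vwf-positive cells with 2 or more Car4+Ednrb UMIs, which held 392117 of its 1438236 UMIs. Of these 42 cells 17 had a UMI of Fibin, Tbx2, Chst1 or Apln, and their epithelial list summed to 10323 CPM. Their part in the values below was not tested. Of its 14 tested genes 12 were called higher and none lower, with a median log2 ratio of 1.69. Fibin, Chst1 and Tbx2 again reached 50 CPM only in the members, so they could not have been called lower. Over all genes 75 of 3530 were called higher (2.12%) and 89 lower (2.52%). Fibin, Emp2, Chst1, AW112010, Tbx2, Slc22a23, Apln and Chil3 had the largest ratios. Tbx2 had 20.9 CPM and Chst1 11.1 CPM in the Vwf-positive cells. On the lower side were the venous adhesion genes Selp and Vcam1, with no UMI in the members and 152 and 98.7 CPM in Vwf-positive cells, Ptgs2 and Cpe, with 0 and 1 UMI in the members, Mgp with 43.4 CPM against 1026 CPM, and the globin genes Hbb-bs, Hba-a1 and Hbb-bt. The globin values rested on 1 Vwf-positive cell, which held 1051 of 1081 Hbb-bs UMIs. Of 8 tested venous genes 5 were called lower than in Vwf-positive cells. General capillary genes had 1 call higher and 2 lower.

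Car4 alone did not mark the members among all cells. The other cells held 6773 Car4 UMIs, and 95.5% of these were in 2528 cells with at least 5 UMIs of Chil3, a gene of alveolar macrophages, where Car4 had 456 CPM, against 7.66 CPM in the rest. Ednrb had 153 UMIs in all the other cells together, 13 of them in those 2528 cells. Chil3 had at least 1 UMI in 25 members, and 1 member had 5 or more, with 80 UMIs. Emp2 had 54.1 CPM and AW112010 279 CPM in the other cells, whereas Fibin, Chst1 and Apln were each under 1 CPM there.

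The 13 listed cell-cycle genes summed to 502 CPM (446 to 563) in the members and 371 CPM (345 to 398) in the low class. Stmn1, a regulator of microtubules, was the only one at 50 CPM or more, with 319 CPM (275 to 369) against 271 CPM (248 to 294), and was not called. At least 3 of the cell-cycle genes other than Stmn1 were found in 5 members (2.48%, 0.808 to 5.68) and in 8 of the low cells (0.772%, 0.334 to 1.52), and the intervals overlapped. Stk11, the gene that encodes LKB1, had 11 UMIs in 11 members (19.1 CPM) against 15.2 CPM in the low class, too few for a statement on its level. TdTomato had 137 UMIs in 57 members, 31 of them in 1 cell, or 238 CPM against 169 CPM in the low class and 1198 CPM in the other cells. After thinning it was in 16.8% of members, 13.0% of low cells and 26.8% of the other cells, and free reporter RNA was not told apart from reporter made by the cell.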

How the data were processed

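Dissociated, viable tumor cells of 4 mice were profiled with 10x 3′ v3 chemistry. The authors aligned reads to mm10 with Cell Ranger 3.0.2, per the labels and the file header, and deposited raw UMI counts of 31055 features in 20351 cells (58624795 UMIs), pooled, with no normalization. No barcode or sample column was used here, so the 4 mice count as 1 sample.

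From these counts, cells were classed by the rule on raw UMIs. The mitochondrial cut-off is the 98th percentile of cells with at least 200 genes. UMIs were summed per class and given as CPM with exact Poisson intervals, ratios with exact conditional intervals and shares with exact Clopper-Pearson intervals (95%). Genes at 50 CPM or more in either class were compared, and a call needed a 2-fold ratio of CPM + 10 with an interval off 0 on the same side. The call rule was run on Poisson counts simulated from the summed counts of the Car4/Ednrb-low class. These hold no variation between cells, so calls that rest on single cells were not tested. The text names the 8 rule genes, examples from the gene lists, the 12 genes with the largest ratios in each direction against Car4/Ednrb-low cells, and 8 against Vwf-positive cells. Timp3, Clu, Dcn, Bgn, Cxcl15 and the genes split by Car4+Ednrb were chosen after their values were seen. The members and lists were chosen with earlier results of these data known. Gene names come from the files, coordinates from GENCODE vM21 and promoters from RefSeq. Doublets were not removed. Alternatives changed the membership, the comparison class, depth, pseudocount and filter, and left out Scrublet calls or cells with markers of another class. Python 3.11.15, numpy 2.4.6, scipy 1.17.1, pandas 2.3.3 and scanpy 1.11.5 were used. Some items of the genotype and of the gene lists are not reported here.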

Additional observations from a re-analysis of the deposited data

How the results depend on the processing

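The main values were 202 members, 70 genes called higher, 17 lower, 9 aerocyte genes higher and 0 general capillary genes lower. Stricter membership gave fewer cells and more calls. At least 3 Car4+Ednrb UMIs left 123 members with 143 genes higher, 49 lower and 3 general capillary genes lower. Both Car4 and Ednrb left 72 members, 254 genes higher, 84 lower, 14 aerocyte and 3 general capillary genes. At least 6 UMIs, chosen after seeing the data, left 52 members, 251 higher, 123 lower, 15 aerocyte and 6 general capillary genes. A comparison class with no Car4 or Ednrb gave 28 lower and 2 general capillary genes, an endothelial sum of 8 gave 1 general capillary gene, and an upper cut-off on genes gave 27 lower and 2 general capillary genes. Cells of 2000 to 6000 UMIs left 97 members and 45 genes lower. Thinning to 1000 UMIs gave 189 higher, 55 lower and 4 general capillary genes. Pseudocounts of 1 and 50 CPM gave 28 and 3 genes lower, 50 CPM gave 30 higher, and 1 CPM gave 1 general capillary gene. Filters of 20 CPM, 100 CPM and none gave 128, 41 and 152 genes higher and 39, 11 and 48 lower. Leaving out cells without Car4, or the top cell of each gene, both chosen after seeing the data, gave 1 general capillary gene each. The 9 aerocyte genes were called higher in each of these alternatives. Scrublet called 181 cells, none of them a member and 11 of them Car4/Ednrb-low cells. Leaving these out moved none of these counts by over 1.5 times, but 12 genes were then called lower. Il1b (log2 ratio -1.14), Apoe (-0.73), S100a8 (-0.35) and H2-Eb1 (-0.94) were then no longer called. Ratios of single genes reversed for Ibsp (-0.26 with the upper cut-off on genes, -0.47 at 2000 to 6000 UMIs), Apod (-0.0701 with the upper cut-off) and S100a8 (0.14 without cells with markers of another class). The cause was not tested beyond the single cells named for these genes.

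There is 1 pooled matrix and so no replicate to leave out, and intervals cover counting error only. No paired analysis was possible because the result comes from no test over samples. Depth limits genes under about 50 CPM, and a count of 0 in the members allows up to 5.21 CPM. Free RNA, doublets and differences between mice were not told apart from expression.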
